A study of Homo sapiens with 10 samples.

Results

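Among the peaks of poly(A) 3′-sequencing in IMR-32 cells, 16276 lay inside introns without carrying either of the sequence features by which an intronic 3′ end is usually sorted. The 10 bases after their 3′ edge held fewer than 7 A, so they were A-poor there, and neither AATAAA nor ATTAAA, the 2 commonest polyadenylation signals (the main hexamers), lay within 100 bp upstream. They were drawn from a list of 178837 peaks, of which 91323 met the conditions on position. These eligible peaks had their summit in an intron of a protein-coding gene where all annotated genes lie on 1 strand, more than 2 kb from the start of the canonical transcript, outside every annotated exon and outside a window that runs from 200 bp before to 600 bp after any transcription end site (TES). The members were thus 17.8% of the eligible peaks (95% Wilson interval 17.6% to 18.1%). The other eligible peaks were 8840 A-poor peaks with a main hexamer, 54866 A-rich peaks without one and 11341 A-rich peaks with one.

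IMR-32 is an established neuroblastoma cell line. The 10 libraries came from cells transduced with lentiviral hairpins and selected with puromycin: 4 with hairpins against CDK12 (sh22 and sh98, 2 libraries each), 4 with hairpins against CDK13 (sh701 and sh704, 2 libraries each) and 2 with a hairpin against GFP, the control. CDK12 and CDK13 are kinases of the RNA polymerase II tail, and the libraries were made to compare where transcripts end after each is depleted. The authors handled these libraries in 2 batches, downsampled them, merged the reads and called 1 set of peaks, so each value below belongs to the pool of all 10 libraries. The list gives neither a strand nor a value per library. No difference between CDK12, CDK13 and control cells can be read from it, no peak has a replicate error, and the depth of each library is unknown. Peaks were read on the strand of their gene. The intervals given here cover counting error only, since peaks are not replicates and PCR reads are not independent molecules.

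A pre-mRNA is usually cut a short way downstream of a hexamer that binds the cleavage and polyadenylation specificity factor, with AAUAAA the strongest form and a series of related hexamers weaker. U-rich or GU-rich sequence after the cut binds the cleavage stimulation factor, and UGUA upstream binds cleavage factor I. The libraries are primed with oligo(dT), which anneals to poly(A) tails but also to runs of A inside a transcript, so genomic A after a peak marks a possible internal priming event. A peak with few A after it and no main hexamer before it is therefore the kind that neither feature accounts for.

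The sequences of some strong members are printed next, read 5′ to 3′ on the strand of the gene from the GRCh38 reference. They are not typical of the class. In HSP90AB1, CWF19L2, BPTF and DDX1 the 3′ edge lay past the intron, as in 6.43% of members with an intron of the canonical transcript. The HFM1 member shared 98.3% of its 20-base words with 28S ribosomal RNA. Upstream sequence of the MAGI3 member occurred 5 times in the genome. The first set holds 1 of the 10 other hexamers that the study counted as poly(A) signals, starting 35 to 15 bp upstream of the 3′ edge. Each line gives 100 bases before the edge and 20 after it, with the hexamer, or overlapping copies of it, in capitals.
HSP90AB1, plus strand, chr6:44250365-44250484: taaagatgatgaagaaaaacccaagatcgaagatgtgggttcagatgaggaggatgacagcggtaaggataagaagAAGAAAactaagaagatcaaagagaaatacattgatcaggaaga
CWF19L2, minus strand, chr11:107454473-107454592: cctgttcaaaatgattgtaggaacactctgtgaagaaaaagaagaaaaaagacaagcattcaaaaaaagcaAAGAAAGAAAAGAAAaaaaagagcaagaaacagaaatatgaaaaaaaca
BPTF, plus strand, chr17:67903749-67903868: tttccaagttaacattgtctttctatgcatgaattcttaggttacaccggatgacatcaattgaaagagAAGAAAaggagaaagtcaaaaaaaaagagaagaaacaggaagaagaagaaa

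In all 3 the hexamer was AAGAAA within purine-rich sequence, and all 3 also had a 10-base window with at least 7 A that started within 20 bp of the edge. The next member is shown because it had no other hexamer in the near window but 10-base windows with at least 7 A started close to its 3′ edge, while the 10 bases directly after the edge held 6 A. Capitals mark those windows that start within 20 bp of the edge, merged where they overlap, so they run across the bases that the rule read.
DDX1, plus strand, chr2:15597346-15597465: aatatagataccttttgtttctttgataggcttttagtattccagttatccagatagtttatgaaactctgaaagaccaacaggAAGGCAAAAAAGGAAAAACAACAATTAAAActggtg

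The following member was A-rich only if read on the other strand, which is T-rich on the strand of the gene. Here the line starts 20 bases before the 5′ edge of the peak and ends 60 bases after it, and capitals mark the 10 bases before the 5′ edge.
MAGI3, plus strand, chr1:113509343-113509422: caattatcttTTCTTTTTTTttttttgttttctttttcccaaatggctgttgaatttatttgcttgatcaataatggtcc

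The last set had none of these 3 features and is printed without capitals, again with 100 bases before the 3′ edge and 20 after it.
PCDHGA1, plus strand, chr5:141496015-141496134: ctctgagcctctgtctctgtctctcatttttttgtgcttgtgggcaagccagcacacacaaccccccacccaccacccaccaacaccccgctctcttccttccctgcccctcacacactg
HFM1, minus strand, chr1:91387221-91387340: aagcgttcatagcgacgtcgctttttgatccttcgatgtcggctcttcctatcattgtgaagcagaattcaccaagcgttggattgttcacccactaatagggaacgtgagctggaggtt

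The cut at 7 A ran through a continuous distribution, and most members lay just under it. Of the members, 6941 (42.6%) had 6 A and 3417 (21.0%) had 5 A, whereas 5918 (36.4%) had 0 to 4 A. Just outside, 11221 peaks without a main hexamer had 7 A and 14361 had 8 A. The median summit pileup, the number of extended reads that cover the summit in the pooled libraries, was 8 reads with 5, 6, 7 and 8 A alike. As a comparison, a grid was laid at every 1000th base of the same introns, at least 200 bp from any peak. On the grid 5 A (8.86%) were commoner than 6 A (4.06%), the reverse of the eligible peaks with 5.51% and 10.6%. Of 991761 grid positions, 848202 (85.5%) met both sequence conditions of the members, so these conditions alone left most intronic sequence in. These positions are the grid used below.

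**Figure D1:**
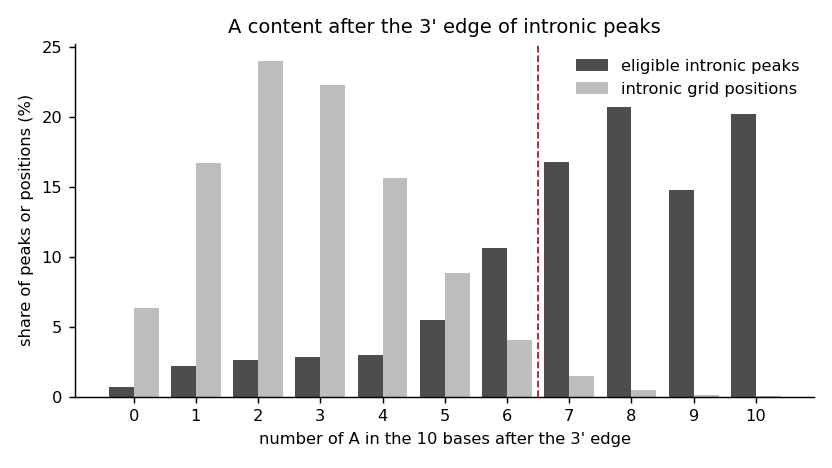
Share of the 91323 eligible intronic peaks (dark) and of the 991761 intronic grid positions (light) by the number of A among the 10 bases after the 3′ edge or the position. The dashed line marks the limit of 7 A, and the peaks left of it with no main hexamer are the members, most of them at 5 or 6 A.

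A-rich windows that did not start exactly at the 3′ edge were common in members, and those that start close by overlap the bases that the rule had read. A 10-base window with at least 7 A started within 20 bp of the edge in 63.1% of members (10264 of 16276) and in 15.5% of grid positions, a difference of 47.6 percentage points (95% Newcombe interval 46.8 to 48.3). Windows that start less than 10 bp from the edge share bases with the A count that chose the members, so this difference restates the rule in part and is given as a description. Between members and grid positions with 0 to 4 A it was 12.5 points (11.4 to 13.6). A-poor peaks with a main hexamer were close to the members with 61.3%, a difference of 1.76 points (0.506 to 3.02). In members such windows started downstream of the edge in 53.5% and upstream in 32.6%, with both in some. They followed the A count that defined the class: 85.2% of members with 5 or 6 A had one, against 24.2% of those with 0 to 4 A. The grid moved the same way, with 41.7% and 11.8%. Beyond the bases that the rule read, 41.4% of bases 11 to 30 after the edge were A in members, against 27.2% in the grid.

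**Figure D2:**
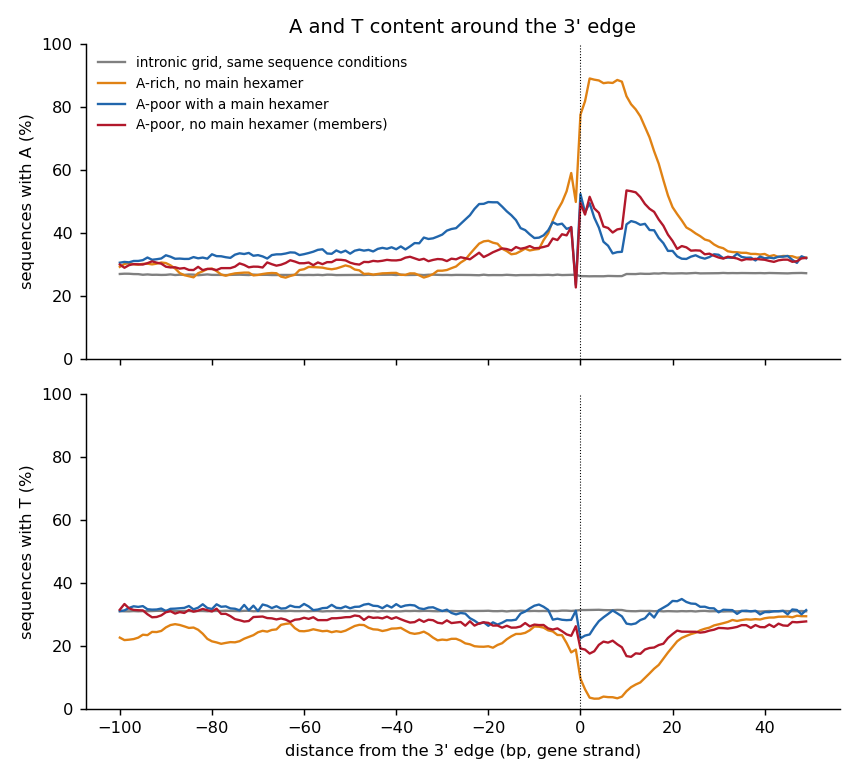
Share of sequences with A (top) and T (bottom) at each base from 100 bp before to 50 bp after the 3′ edge, in gene orientation, for members (red), A-poor peaks with a main hexamer (blue), A-rich peaks without one (orange) and the grid with the same sequence conditions (grey). In members A rises again at base 11, directly after the window that the rule read, and T falls below the grid on both sides of the edge.

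The 10 other poly(A) hexamers were commoner in members than in the grid, but less common than in peaks that also had a main hexamer. At least 1 lay within 100 bp upstream in 47.9% of members and 31.2% of the grid (difference 16.6 points, 15.9 to 17.4), and in 30.5% of A-rich peaks without a main hexamer (17.4 points, 16.5 to 18.2). The share was 55.9% (54.8% to 56.9%) in A-poor and 53.8% (52.9% to 54.7%) in A-rich peaks with a main hexamer. The difference from the grid was smaller, at 5.06 points (3.85 to 6.29), with 0 to 4 A after the edge and, at 4.06 (2.89 to 5.26), without A-rich windows near it. Among the 330 members with a −log10 q-value of 20 or higher it was larger, at 31.5 points (26.2 to 36.5), and 19.2 (14.7 to 24.3) for the near window described next. One started 35 to 15 bp upstream, where a functional signal usually lies, in 19.1% of members, 8.65% of the grid (10.4 points, 9.83 to 11) and 11.3% of the A-rich peaks (7.80 points, 7.15 to 8.47), and in 22.8% (22% to 23.7%) of A-poor and 20.5% (19.8% to 21.3%) of A-rich peaks with a main hexamer. That is 22.8 starts per 100 members against 9.74 per 100 grid positions in that window. Among hexamers that lay wholly upstream of the edge, the commonest start in members was 7 bp before it, with 1.62 per 100. A-rich peaks without a main hexamer also had theirs 7 bp before it, with 1.3. A-poor peaks with a main hexamer had theirs 27 bp before it, with 1.59. At 3 bp before the edge a hexamer runs across it and is not counted in these shares. There members and A-poor peaks with a main hexamer both had more starts.

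The hexamers differed in how much they contributed. AAGAAA was the commonest by far, within 100 bp of 17.5% of members and 6.81% of the grid (10.7 points, 10.1 to 11.3), and in the near window of 5.21% and 1.59%. AATGAA came next with 8.96% against 4.55%. TATAAA followed at 7% against 5.18%. The highest ratios to the grid in the near window after that of AAGAAA (3.28) were those of AGTAAA (2.80), in 2.22% of members, and GATAAA (2.80), in 1.87%. ACTAAA, at 3.56% against 3.37% within 100 bp, could not be told from the grid there (difference 0.188 points, -0.0882 to 0.486). In the near window its difference was 0.252 points (0.109 to 0.417). Within 100 bp but without A-rich windows near the edge it was -1.06 points (-1.37 to -0.675). Where windows with at least 7 A near the edge were left out, the near-window share of AAGAAA in members fell to 1.90% (grid 1.11%), below TATAAA with 2.01% (grid 0.977%). The share with any of the 10 in that window was then 13.7% of 6012 members and 6.96% of the grid.

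**Figure D3:**
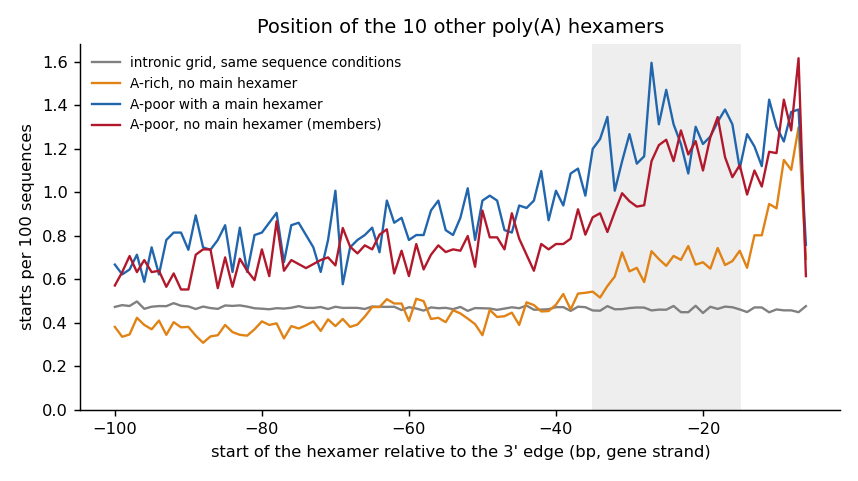
Starts of any of the 10 other poly(A) hexamers per 100 sequences at each distance before the 3′ edge, for hexamers that lie wholly upstream of it, in the same sets of peaks and grid positions; the shaded band is the window from 35 to 15 bp. Members (red) lie above the grid (grey) over the whole 100 bp and are highest at 7 bp, with 1.62. A-rich peaks without a main hexamer (orange) are also highest at 7 bp, with 1.3.

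Of the elements that assist cleavage, the downstream one was rarer in members than in the grid, and TGTA differed by an amount that depended on the peaks kept. A downstream element, counted as 5 T in a row, TGTGT or GTGTG within 40 bp after the edge, was found in 11.6% of members and 20.2% of the grid (difference -8.59 points, -9.08 to -8.08), and in 23.5% of A-poor peaks with a main hexamer. With 0 to 4 A after the edge, members reached 17.8% and the grid 20.9%, and without A-rich windows near the edge the difference was -4.54 points (-5.45 to -3.57). TGTA, the DNA form of the cleavage factor I element, lay within 100 bp upstream in 37.3% of members and 38.2% of the grid (-0.933 points, -1.68 to -0.180). With members, but not the grid, limited to sequence that occurs once in the genome, that difference turned to 1.22 points (0.405 to 2.05). It was larger, at -3.39 points (-4.60 to -2.17), with 0 to 4 A, -4.32 (-5.51 to -3.11) without A-rich windows near the edge and -6.41 (-11.2 to -1.20) among the 330 members of highest −log10 q-value. A-poor peaks with a main hexamer held TGTA in 49.1%, 11.8 points more than members (10.5 to 13.1).

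Members also stood out when read on the strand opposite to their gene. At least 7 T among the 10 bases before the 5′ edge, which is A-rich sequence after the peak for a transcript of the other strand, was found in 14.9% of members (2425), 3.56% of the grid (11.3 points, 10.8 to 11.9) and 3.82% of A-poor peaks with a main hexamer (11.1 points, 10.4 to 11.7). With members, but not the grid, limited to upstream sequence that occurs once in the genome, the difference was 4.97 points (4.52 to 5.45). Without A-rich windows near the 3′ edge, in members and grid alike, it was 31.2 points (30 to 32.5). All 10 of these bases were T in 807 members (4.96%) and 0.163% of the grid. The share was 36.0% in members with 0 to 4 A, against 3.68% of the grid with as few, and 2.84% in those with 5 or 6 A, close to the 2.76% of the grid. A main hexamer on the other strand within 100 bp of the 5′ edge, read inwards, was found in 18.2% of members, 16.2% of the grid (2.01 points, 1.42 to 2.61) and 23.3% of A-poor peaks with a main hexamer. The difference from the grid grew to 10.2 points (9.10 to 11.3) with 0 to 4 A, 9.16 (8.08 to 10.3) without A-rich windows near the edge and 14.7 (9.93 to 19.9) among the 330 members of highest −log10 q-value. It was 1.26 points (0.661 to 1.88) in peaks that touch no exon. Without A-rich windows near the edge, the hexamer was found in 25.3% of members and 30.4% of A-poor peaks with a main hexamer. In its near window it was found in 7.37% of members (6.98% to 7.78%), 6.79% of A-poor peaks with a main hexamer (6.28% to 7.33%) and 4.11% of the grid.

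These members were unevenly spread over genes, with a larger share where the gene lacked a TES peak. Of the 1207 members in genes without any TES peak, 48.3% were A-rich on the other strand, against 12.2% of the 15069 in genes with one (36.1 points, 33.2 to 38.9), and windows of A near the 3′ edge went the other way with 31.2% and 65.6%. This comparison was added after the tables were seen. PAPPA, which encodes a metalloproteinase that cleaves insulin-like growth factor binding proteins, held the most: 20 of its 31 members were A-rich on the other strand. PAPPA had no TES peak, and 31 of its 34 eligible peaks (91.2%, 77% to 97%) were members. ASTN2, which lies beyond the 3′ end of PAPPA on the opposite strand, has its own end 20.8 kb away and had a TES peak of 32 reads. EFCAB13 followed with 17 of 22 members, then NDST3 with 12 of 18, PRB2 with 12 of 15 and TACR1 with 12 of 17. NDST3 and PRB2 had no TES peak, and those of EFCAB13 and TACR1 reached 13 and 9 reads. Since the list gives no strand, members on transcripts of the other strand cannot be told apart from members on those of the gene.

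These features overlapped in part and did not cover the class. Of the members, 7726 (47.5%) had only a window of A near the edge, 2020 (12.4%) only the A-rich sequence on the other strand and 739 (4.54%) only another hexamer in the near window. In all, 2283 (14.0%) had both a window of A and a near hexamer, and 67 had all 3 features. None of the 3 was found in 3170 members (19.5%, 18.9% to 20.1%) and 75.7% of the grid, but the windows of A share bases with the 10 that the rule read, so this gap partly restates the rule. Among members with 0 to 4 A the share without any was 32.9%, and among those with 5 or 6 A it was 11.8%.

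Members were low peaks. Their pileup spanned 3 to 88 reads and was 8 at the median, the middle 50% of members lay between 6 and 11, and the median width was 106 bp. A pileup of at least 20 reads was reached by 3.37% of members (549), 5.95% of A-poor peaks with a main hexamer (difference -2.58 points, -3.15 to -2.02), 2.05% of A-rich peaks without one (1.32 points, 1.03 to 1.63) and 33.8% of 35975 TES peaks. Within genes that had a TES peak, 573 of 15069 members (3.8%) were higher than the highest TES peak of their gene. Of the members with at least 20 reads it was 152 of 509.

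The highest members mostly ended in an exon. Of the 15 with the highest pileup, 9, in 8 genes, had a 3′ edge that lay past the end of the intron, 60 to 174 bp into the next exon of the canonical transcript, although their summit was intronic. They included HSP90AB1, a cytosolic chaperone, with 86 reads and the edge 174 bp into the exon, in an intron of only 0.136 kb. EIF5B, a translation initiation factor, had 61 reads and an edge at 155 bp. BPTF, a subunit of a chromatin remodelling complex, and CWF19L2 had 47 reads each, with edges at 60 and 80 bp. MCM3, part of the replicative helicase, had 47 reads and RPL38, a ribosomal protein, 45, with edges at 88 and 61 bp. The AAGAAA of HSP90AB1, CWF19L2 and BPTF printed above thus stood in exon sequence.

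Over all members with an intron of the canonical transcript, 6.43% (966 of 15029) had their 3′ edge past the intron, against 2.94% of A-poor peaks with a main hexamer (3.49 points, 2.94 to 4.02) and 1.49% of A-rich peaks without one (4.93 points, 4.54 to 5.35). The share climbed with pileup, from 2.90% at 3 to 5 reads to 22.5% at 20 reads or more (19.1% to 26.5%). The difference between members with at least 20 reads and all lower ones was 16.7 points (13.1 to 20.6). AAGAAA within 100 bp was found in 21.5% of the members that end past the intron and 17.6% of those that end inside it (3.89 points, 1.33 to 6.66). The order was the opposite for any other hexamer in the near window, found in 15.8% (13.7% to 18.3%) and 19.2% (18.6% to 19.9%). Peaks were called on reads extended along the genome, where an exon and the intron before it adjoin, and the part of spliced reads in these members was not tested.

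Some strong members matched ribosomal RNA. The member of HFM1, a helicase of meiosis, reached 54 reads against 6 at the TES of the gene and shared 98.3% of its 20-base words with the 28S ribosomal RNA. A member in PDE3A, a phosphodiesterase, with 34 reads matched the 18S ribosomal RNA in 100%. In all, 12 of 16276 members, in 9 genes, shared a 20-base word with mitochondrial or ribosomal RNA sequence, against 0 of 8840 A-poor peaks with a main hexamer and 5 of 54866 A-rich peaks without one. With 1 exception, a member of NONO with 5 reads and a match of 2.47%, the 12 had 16 to 88 reads.

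DDX1, a DEAD-box RNA helicase, held 3 of the 15, with 82, 55 and 46 reads. The higher 2 ended 71 and 77 bp into an exon, and the third inside its intron. Their backgrounds were 6.24, 7.37 and 5.71 reads, where the median background of members was 0.490. DDX1 and NBAS are neighbours of MYCN on chromosome 2, a region amplified in IMR-32, but copy number was not measured here. DQX1 (64 reads, background 7.83) and PCDHGA1, a protocadherin (65 reads, background 1.59), had none of the 3 features and ended inside their introns. In PCDHGA1 the peak was followed by 10 bases without any A, and the highest TES peak of the gene had 27 reads. CDC34, a ubiquitin-conjugating enzyme, had 46 reads at a member inside its intron against 25 at the TES. EIF4E2, a cap-binding protein, had 47 against 46, with the edge of the member 84 bp into an exon.

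Features other than the exon edge also moved with pileup. A near-window hexamer was found in 13.9% of members with 3 to 5 reads (12.8% to 15.1%) and 27.3% with 20 or more (23.8% to 31.2%). The A-rich sequence on the other strand went from 19.2% to 9.29%. Windows of A near the 3′ edge stayed between 57.5% and 66.5% in all 5 bins. None of the 3 features was found in 21.9% of members with 3 to 5 reads and 17.9% with 9 to 12. With 20 or more it was 27.5% (23.9% to 31.4%). The middle 32 of the 100 bases upstream occurred more than once in the genome in 15% of members (14.5% to 15.6%), 13.7% of grid positions (13.3% to 14%), 8.56% of A-poor peaks with a main hexamer and 31.5% of A-rich peaks without one.

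**Figure D4:**
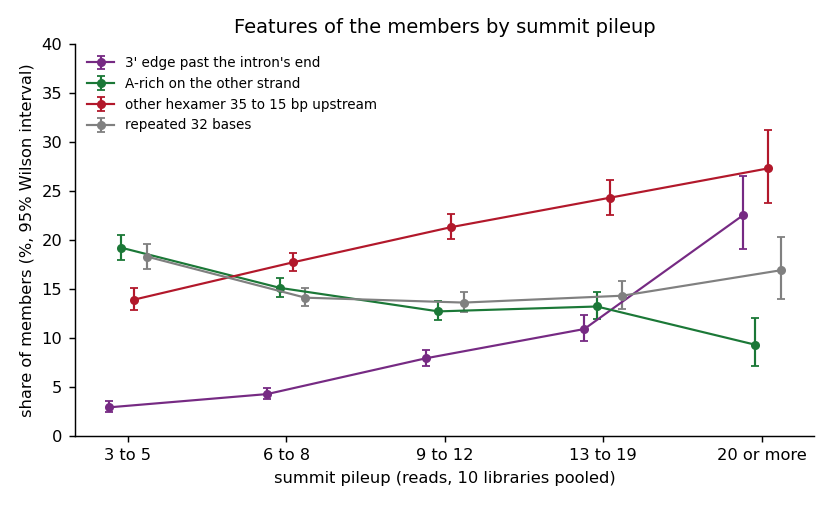
Share of members with each feature by summit pileup, with 95% Wilson intervals: a 3′ edge past the end of the intron (purple), A-rich sequence on the other strand (green), another poly(A) hexamer 35 to 15 bp upstream (red) and upstream sequence that occurs more than once in the genome (grey). The purple and red shares rise to 22.5% and 27.3% at 20 reads or more, while the green share falls to 9.29%.

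Members were spread over 5916 of the 15735 genes with eligible intron sequence (37.6%). Of these genes 2641 held 1 member, 2399 held 2 to 4 and 876 held 5 or more, with 7350 members among them. Genes with a member were longer (median 83.1 kb) than those without (22.8 kb). The share of genes with a member rose from 8.93% with at most 10 kb of eligible intron to 79.0% above 300 kb. The density went the other way, from 2.53 to 1.07 members per 100 kb, and members made up 32.1% of the eligible peaks in the shortest bin and 15.4% in the longest.

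The gene with the most members was GPC6, a cell-surface heparan sulphate proteoglycan, with 43 of 238 eligible peaks (18.1%) and no TES peak. ASTN2, a neuronal membrane protein, had 39 of 175, RBFOX1, a splicing regulator, 37 of 367 and NAV2, a neuron navigator, 35 of 147. ALK, a receptor tyrosine kinase mutated in some neuroblastomas, had 35 of 123 (28.5%, 21.2% to 37.0%). RBMS3 had 32, LSAMP 29, NBAS 30 and GSE1 28 members. In GPC6, 34 of the 43 had a window of A near the edge, and in LSAMP 27 of the 29. GSE1 was unlike them with 10 of 28, and 15 of its members had none of the 3 features. The members of NBAS, which acts in Golgi-to-endoplasmic reticulum transport, had a median of 15 reads, against 7 to 13 in the other 9 genes. Read per length, PAPPA had 15.4 members per 100 kb of eligible intron and RBFOX1 1.54, close to the 1.56 of all genes.

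Members were placed somewhat later in genes than A-poor peaks with a main hexamer. Members lay nearer to the start than to the end of the gene in 51.2%, A-poor peaks with a main hexamer in 54.0% (difference -2.72 points, -4.01 to -1.43), A-rich peaks without one in 53.5% and the grid in 52.2%. With peaks restricted to a −log10 q-value of 20 or higher, which left 330 members, the first of these differences became 2.84 points with an interval that included 0. It was larger with 0 to 4 A (-7.11 points, -9.05 to -5.17), without A-rich windows near the edge (-6.25, -8.34 to -4.16) and with 1 peak per gene (-4.67, -6.64 to -2.69). Of the members in canonical introns, 24.3% were in the first intron and 15.1% in the second. Among all grid positions in canonical introns, before the sequence conditions were applied, the shares were 23.7% and 15.6%. The median member was 53.8 kb from the canonical start.

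Genes of cleavage and polyadenylation held members in 8 of 21 (38.1%), near the 37.6% of all genes. RPRD2, which binds the polymerase tail, had 8, and CPSF3, the endonuclease that cuts the pre-mRNA, had 3, the highest of them with 20 reads. WDR33, which recognises the AAUAAA signal, and XRN2, the exonuclease that degrades the RNA left after the cut, had 3 each. Of 28 DNA damage response genes 12 held a member (42.9%), with a median of 54.5 kb of eligible intron, and members were 13.7% of their eligible peaks against 17.8% over all genes. Of all genes with 50 to 100 kb, 59.8% held a member. The list was led by BRIP1 and RAD51B with 6 each, WRN with 5 and BARD1 with 4, the last in a tie with 3 other genes of the list. The 4 named act in repair or in the unwinding of DNA. All 6 members of BRIP1 and all 6 of RAD51B had a window of A near the edge.

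The adrenergic and neuroblastoma genes held members in 8 of 17 (47.1%, against 37.6% of all genes), with a median of 6.97 kb of eligible intron against 23.4 kb. Of all genes with at most 10 kb, 8.93% held a member. Members were 24.1% of the eligible peaks of this list, against 17.8% over all genes. ALK accounted for 35 of the 51 members of the list. ELAVL4 and LIN28B, both RNA-binding proteins, had 5 each, and GATA3, a transcription factor of sympathetic neurons, had 2. All 17 had a TES peak, with 60 reads in GATA3 and 52 in ELAVL4. The long neuronal adhesion and synapse genes had members in 19 of 20 (95%), with a median of 1176 kb of eligible intron and 0.684 members per 100 kb. Over all genes with more than 300 kb it was 79.0% and 1.07 per 100 kb, and over all genes of any length 37.6% and 1.56. CTNNA2, a catenin of neurons, had 26 and the scaffold MAGI2 19.

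Of 20 genes for transcription kinases and elongation factors 10 held a member (50%, against 37.6% of all genes), with a median of 31.7 kb of eligible intron, and members were 18.3% of their eligible peaks, near the 17.8% of all genes. They included CDK8 with 5, CDC73, part of the PAF1 complex, with 4 and CDK19 with 4. CDK13, one of the kinases depleted, had 4 of 21 eligible peaks (19%, 7.67% to 40%), with 5, 11, 9 and 7 reads, below the 34 reads at its TES. They lay 29.8, 47.2, 100 and 130 kb from the start, in introns 1, 2, 7 and 11 of 13. The one with 11 reads ended 34 bp past its intron and had both a window of A near the edge and another hexamer in the near window, whereas the other 3 had none of the 3 features. CDK12 had 12 eligible peaks, and none of them was a member (0 of 12, with a 95% Wilson interval up to 24.2%).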

How the data were processed

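Poly(A) 3′-sequencing libraries (QuantSeq REV, oligo(dT)-primed, each read starting at the 3′ end of a transcript) were trimmed by the authors, mapped to GRCh38 with STAR 2.5.1b, downsampled to the smallest library, merged and passed to MACS2 2.1.1 with reads extended to 100 bp. The authors then dropped peaks with none of their 12 hexamers within 100 bp upstream but a long genomic run of A downstream. Whether the list used here precedes that step is not known. Its effect on the shares of hexamers and windows of A was not tested. The deposited fold is the ratio of summit pileup to local background, each with 1 added, the deposited p-value and q-value are −log10 values of that pileup against the background, the deposited score is an integer form of the q-value, and the deposited summit offset gives its distance from the peak start. Extension follows the genome and ignores splicing, so a summit can fall in an intron beside an exon.

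Pileup and background were solved from the deposited fold and p-value (largest miss 0.00015). Summits on chromosomes 1 to 22, X and Y (178392 peaks) were annotated with GENCODE 44 (1 peak near undetermined bases was left out). Motifs were searched on the strand of the gene at the 3′ edge, and at the 5′ edge on the other strand (for grid positions, 106 bp away). Shares have 95% Wilson intervals, and differences of shares were compared, two-sided, by 95% Newcombe intervals. Copies were counted as exact matches of 32 bases in the chromosomes, and 20-base words were matched on both strands to the mitochondrial genome and to RefSeq 18S and 28S ribosomal RNA (GRCh38). Named were the 10 genes with most members, those of the 15 members of highest pileup, up to 4 genes per list, CDK12 and CDK13 (some of these items are not reported here) and, after values were seen, EFCAB13, NDST3, PRB2, TACR1, PDE3A and NONO. The members, the 5 gene lists and the tests were chosen with earlier results of these data known. Motif search, pileup recovery and intervals were tested on simulated data. Python 3.11.15 with numpy 2.4.6, pandas 2.3.3, scipy 1.17.1 and matplotlib 3.10.9 was used.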

Additional observations from a re-analysis of the deposited data

How the results depend on the processing

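The 9 compared shares and the number of members were recomputed under 11 other settings, except that the setting with the summit gave the number of members alone and the one without A-rich windows gave no share of such windows. Added were 3 settings (without A-rich windows near the edge, single-copy sequence, no exon overlap) chosen after seeing the data. Of 100 values, 90 kept their direction and their side of 0, or a number within 1.5 times the first. The number of members moved from 16276 to 9990 when the −log10 q-value had to reach 5, 330 when it had to reach 20, 5918 with fewer than 5 A, 5916 with 1 peak per gene, 79438 when the summit replaced the 3′ edge, and 6012 without A-rich windows near the edge. With the −log10 q-value limit at 20, the difference in high pileup was -3.94 points (-9.47 to 1.65) and that in the part of the gene nearer the start reversed to 2.84 (-4.89 to 10.5). The TGTA difference was -0.495 (-1.36 to 0.380) in peaks at most 150 bp wide and reversed to 1.22 (0.405 to 2.05) in single-copy sequence, where the grid was not so limited. The causes of these changes were not tested.

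No paired analysis was possible because each value in the peak list used here belongs to the pool of the 10 libraries, so replicates were not left out in turn and conditions were not compared. A planned share of masked repeats was not run, as the reference used here does not mark them. The median member had 8 reads over all libraries, and how depth affects the lower end of the class was not tested.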
